A study of Drosophila melanogaster with 12 samples.

Results

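The mature miRNAs of the fly hairpins with gene numbers from 9300 to 9399 are described here in AGO1 immunoprecipitates from heads. They were chosen by hairpin number alone. The deposited table held 26 such mature miRNAs, from 16 hairpins, among 408 rows from 238 hairpins. Heads came from wild-type Canton-S flies. The flies were kept in the cold (18°C), at the standard 25°C or in the warm (29°C) and sampled at ZT3, ZT9, ZT15 and ZT21, where ZT counts hours from lights on. Each combination of temperature and time point gave 1 small RNA library, 12 in all. The study treated the 4 time points of a temperature as replicates, so n = 4 and the spread within a temperature includes any effect of the time of day. No label says that the libraries came from separate cultures of flies. The sex and age of the flies were not given in the sources used here.

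miRNAs are small RNAs cut from the 2 arms of an RNA hairpin, named 5p and 3p. AGO1 is the Argonaute protein into which most fly miRNAs are loaded to repress their target mRNAs. High hairpin numbers mark late additions to the miRNA catalogue. Such loci are as a rule weakly expressed, and many lie inside the exons or introns of genes with another product.

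The 12 libraries held from 4423511 to 16840372 miRNA reads, the shallowest being 29°C ZT21 and the deepest 25°C ZT15. Values are reads divided by the size factor of the library, and 3 reads were worth between 1.97 and 7.65 depending on the library. Marker miRNAs of head tissue were read in every library: the summed value of 3 photoreceptor and sensory miRNAs was 189426 to 331077, and neuronal miR-124-3p had 86.0 to 268. The muscle pair miR-1-3p and miR-133-3p summed to 195931 to 666663. Of 8 testis miRNAs listed, 7 were in the table and summed to 24.5 to 50.1, with none at 0 throughout. The part of other tissues in the results was not tested.

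Most hairpins of the series lay inside genes that make another RNA. In the BDGP6.54 annotation, 7 of 16 hairpins (43.8%) lay wholly inside an exon of a protein-coding gene on the same strand, against 28 of 234 placed hairpins of the whole table (11.97%). For hairpins numbered in the 4900s, another late and weakly read series, it was 14 of 54. These shares are descriptions of the annotation and were not tested. The hairpins were short, with a median length of 61 bases (50 to 92) against 92 over the table. The mature miRNAs had 20 to 24 bases, with a median of 22.

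Of the exonic hairpins, 4 touched a 3′ UTR. The hairpin mir-9370 (X:11710252-11710301, minus strand) lay in the 3′ UTR of Amun, and mir-9371 (3R:9989120-9989180, plus strand) in that of Glut4EF. The hairpin mir-9375 (3R:6451551-6451609, minus strand) lay in the 3′ UTR of CG9727 and ran 2 bases past the annotated end in 2 of 3 transcripts.

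The hairpin mir-9372 (X:633691-633751, minus strand) lay in Dredd, the caspase of the fly's Imd immune pathway. In 3 of 4 Dredd transcripts the hairpin spanned the end of the reading frame. The stop codon took bases 44 to 46 of its 61, counted from the 5′ end, so it fell within the 3p arm (bases 38 to 60). The 5p arm (bases 1 to 24) was coding sequence. In the other transcript the whole hairpin was 3′ UTR.

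**Figure D1:**
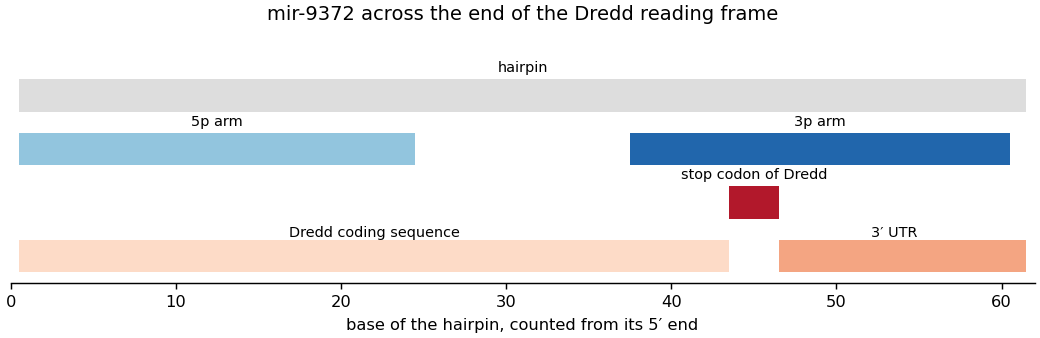
Position of the mir-9372 arms relative to the Dredd reading frame, as annotated in BDGP6.54 for 3 of 4 Dredd transcripts. The horizontal axis counts bases of the hairpin from its 5′ end; bars mark the hairpin, its 5p arm (1 to 24) and 3p arm (38 to 60), the stop codon (44 to 46) and the coding and untranslated parts of the mRNA. The 3p arm holds the stop codon.

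The remaining exonic hairpins were in 5′ UTRs or coding sequence. The hairpin mir-9374 (2L:21238301-21238361, plus strand) lay in the 5′ UTR of 4 Hr39 transcripts. Hr39 is a nuclear receptor. The hairpin mir-9373 (3R:19621080-19621138, minus strand) began 3 bases after the start of 1 CG6231 transcript, in its 5′ UTR, and was intronic in 5 others. The hairpin mir-9383 (3R:15221795-15221855, plus strand) lay in a coding exon of CG12241.

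Introns held 4 more hairpins. They were mir-9377 (X:12665217-12665268, plus strand) in Tis11, which encodes an mRNA decay factor, and mir-9378 (2L:10751877-10751938, minus strand) in CG17124. The hairpin mir-9382 (2L:12724957-12725025, plus strand) lay 45 bases from the nearest exon of MRP, a multidrug transporter gene. The hairpin mir-9384 (3R:4748664-4748723, minus strand) lay 67 bases from the nearest exon of tacc, which encodes a centrosomal protein.

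The last 5 hairpins were in no exon or intron of a protein-coding gene on their strand. The hairpin mir-9369 (X:19551318-19551379, plus strand) stood 75 bases after mir-972 and 148 bases before mir-973, members of the testis cluster listed above. The hairpin mir-9381 (3R:23983496-23983569, plus strand) began 7 bases before lncRNA:mimi and ran into it. The hairpin mir-9379 (2R:13852845-13852901, minus strand) was antisense to a 3′ UTR of CG30485. The hairpins mir-9385 (4:400703-400765, minus strand) and mir-9388 (3L:22945116-22945207, plus strand) overlapped no annotated exon.

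All 26 mature miRNAs were rare. Together they had 2517 reads over the 12 libraries, or 18.6 reads per 1000000 miRNA reads. Mean reads per library ran from 0.0833 to 30.2, with a median of 3.17, against 26.3 for the 403 distinct rows of the table and 1.83 for the 77 rows of the 4900s. In 18 of 26 (69.2%) the mean was under 10 reads, marked here as few reads, against 80.5% in the 4900s and 42.2% over the table. Over all libraries the hairpin mir-9372 had the most reads (397), before mir-9383 (362), mir-9369 (334) and mir-9370 (314), and mir-9379 had the fewest (2). The place of mir-9372 rested on the 18°C libraries, which held 358 of its reads, against 37 at 25°C and 2 at 29°C. At 25°C and 29°C mir-9383 had the most, with 135 and 131.

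Fewer were detected in the shallowest libraries. At least 1 read was found for 9 to 22 of the 26 per library, with 9 in the shallowest library, 29°C ZT21, and 22 in the deepest, 25°C ZT15. At least 3 reads were found for 7 to 17. With every library thinned by calculation to the depth of 29°C ZT21, 9 to 17.6 would be expected, the highest in 18°C ZT21. Only 7 of 26 were read in every library, and 4 never reached 3 reads in any.

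**Figure D2:**
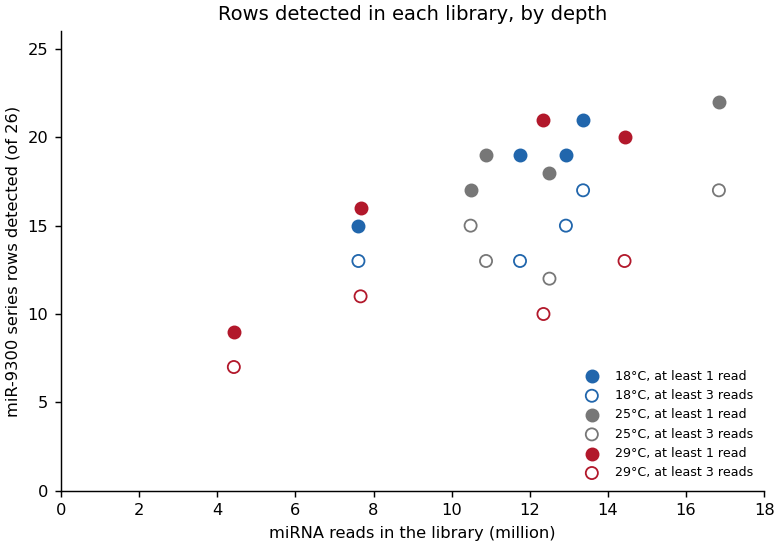
Number of the 26 mature miRNAs detected in each library (vertical axis) against the library's total of miRNA reads (horizontal axis), with filled points for at least 1 read and open points for at least 3 reads, coloured by temperature. The counts run from 9 in the shallowest library to 22 in the deepest at 1 read.

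One arm dominated in most hairpins. Both arms were in the table for 10 hairpins, the 3p arm with more reads in 6 and the 5p arm in 4. Of the 6 hairpins with 1 arm in the table, 5 had the 3p arm and mir-9378 had the 5p arm. The 5p arm took 95.2% of mir-9370 reads (95% Clopper-Pearson interval 92.2 to 97.3%) and 91.8% of mir-9371 reads (87.6 to 94.9%). It took 9.32% of mir-9372 reads (6.65 to 12.6%) and 3.89% of mir-9369 reads (2.09 to 6.56%). These intervals cover counting error only, as do all that follow on pooled reads, and ligation preferences of single RNAs are not corrected, so levels of different miRNAs are compared only as reads.

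The mir-9375 and mir-9381 hairpins had the most balanced arms among those with over 100 reads. The 5p share of mir-9375 was 38.2% at 18°C (29.08 to 47.9%), 31.4% at 25°C (20.9 to 43.6%) and 17.4% at 29°C (4.95 to 38.8%). That of mir-9381 was 25.93% (15.0 to 39.7%), 22.6% (14.6 to 32.4%) and 7.84% (2.18 to 18.88%) in the same order. Both shares were lowest at 29°C, but the 29°C intervals overlap those of the other temperatures and rest on 4 reads of the 5p arm in each hairpin. No test of arm ratios was made at these depths.

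The series took a larger share of the reads in the cold. The value summed over all 26 had a mean of 276 at 18°C (SD 48.5, n = 4). In the 25°C libraries this mean was 164 (SD 24.3, n = 4), and in the 29°C libraries 147 (SD 21.9, n = 4). The 18°C libraries ran from 237 to 342, above the 25°C libraries (141 to 186) and the 29°C libraries (116 to 166), which overlapped. As a share, the series had 22.6 to 36.0 reads per 1000000 miRNA reads at 18°C, 13.1 to 17.2 at 25°C and 10.4 to 15.4 at 29°C.

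Temperature was tested for 9 of the 26, those with enough reads for the filter: over 0.83 reads per 1000000 in at least 4 libraries. The other 17 are given by their reads. A call needed a log2 fold change above 1 in size, on the log2(value + 1) scale, together with a limma p below 0.05 after Benjamini-Hochberg adjustment over all 244 rows tested. The added 1 shrinks changes of rows with few reads, but this scale does not always understate them. For miR-9378-5p, with 0 reads at 18°C ZT9, the change between 18°C and 29°C was -1.57, against -1.25 in DESeq2. A row that passes the filter through the temperature where it is high had to differ to some degree. That holds for miR-9373-3p, over the limit in 4 libraries at 18°C and in none of the others, and in part for miR-9371-5p, miR-9372-3p and miR-9375-3p, under the limit in every 29°C library. In turn, miR-9378-5p was under it in every 18°C library. The counts of calls among the 9 are therefore descriptions. The 3 comparisons share their libraries, so they are not independent of each other.

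Between 18°C and 29°C, 5 of 9 were called, against 16% of all 244 rows tested. Of these, 4 were higher at 18°C (9.84% of all rows) and 1 was lower (6.15%). Leaving out miR-9373-3p, which only its 18°C libraries brought into the test, 4 of 8 were called. These 8 are not free of that selection. They keep miR-9372-3p and miR-9375-3p, each over the limit in 4 libraries at 18°C and only 2 at 25°C, so both also needed 18°C to pass. Among the 82 tested rows with a mean under 100 reads, 25.6% were called, and among the tested rows of the 4900s 33.3%. The values of 5 of 9 did not overlap between both temperatures, against 38.9% of all rows. The median log2 fold change of the 9 was 1.09, with a range from -1.57 to 5.84, and that of all rows tested was 0.03. With no filter, 8 of all 26 (30.8%) were called against 13.4% of 403 rows and 15.6% of the 4900s.

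The largest difference was in miR-9372-3p, the arm over the Dredd stop codon. Its values at ZT3, ZT9, ZT15 and ZT21 were 45.5, 54.2, 74.8 and 104 at 18°C. They were 14.1, 9.19, 6.56 and 2.28 at 25°C. At 29°C they were 0, 0, 0.905 and 0, where 0.905 is 1 read. The 3 temperatures did not overlap, and the 25°C libraries stood between the others. The log2 fold change was 5.84 between 18°C and 29°C (SE 0.47, limma adjusted p = 5.4e-07) and 3.10 between 18°C and 25°C (SE 0.47, adjusted p = 0.000854). Between 29°C and 25°C it was -2.74 (SE 0.47, adjusted p = 0.00201). The size depends on the treatment of low values: between 29°C and 25°C it was -0.78 with a pseudocount of 10, which ended the call, and -4.34 in DESeq2. Between 18°C and 29°C the same settings gave 2.91 and 7.50, both called.

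The pooled reads of miR-9372-3p, divided by the summed size factors, give the ratio without a pseudocount. They were 324 at 18°C and 1 at 29°C, a ratio of 256 whose exact counting interval ran from 45.7 to 10150. Against the 35 reads at 25°C the ratio was 9.93 (6.99 to 14.5). Its libraries spread more than counting allows: at 18°C the variance was 11.1 times that of counting error alone, the largest such ratio in the series. The lowest 18°C value was at ZT3 and the highest at ZT21, while at 25°C ZT3 was the highest and ZT21 the lowest.

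The other arm, miR-9372-5p, was under the filter and showed its reads in the same libraries. It had 1, 3, 9 and 21 reads at 18°C, and 0, 0, 1 and 1 at 25°C. At 29°C it had 0, 0, 1 and 0. Its pooled ratio of 18°C to 29°C was 26.9 (4.51 to 1093, 34 reads against 1), and its ratio of 18°C to 25°C was 18.23 (4.67 to 157, 34 reads against 2). In the fit with no filter it was called higher at 18°C in both comparisons, by 2.37 against 29°C (adjusted p = 0.00475) and by 2.21 against 25°C (adjusted p = 0.0182).

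The miR-9371-5p of the Glut4EF 3′ UTR also fell with each step in temperature. Its values were 30.4, 26.4, 31.4 and 45.5 at 18°C. They were 14.1, 9.19, 15.7 and 9.88 at 25°C, and 3.09, 2.82, 0.905 and 7.65 at 29°C, where the last value is 3 reads. The 3 temperatures did not overlap. It changed by 3.07 on the log2 scale between 18°C and 29°C (SE 0.41, limma adjusted p = 5.4e-05), and the pooled ratio was 12.2 (6.45 to 26). It was -1.69 between 29°C and 25°C (SE 0.41, adjusted p = 0.0158).

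The step of miR-9371-5p between 18°C and 25°C was 1.38 (SE 0.41, limma adjusted p = 0.0282). That call was lost when any of 5 libraries was left out, 3 at 18°C (ZT3, ZT15, ZT21) and 2 at 25°C (ZT9, ZT21), with adjusted p from 0.0579 to 0.0790. Between 29°C and 25°C the call was lost without 25°C ZT3 (adjusted p = 0.0520). With a pseudocount of 10 both calls against 25°C were lost, with changes of 0.96 and -0.72. The partner arm miR-9371-3p had few reads, 0 to 4 per library at any temperature.

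The miR-9370-5p of the Amun 3′ UTR was high at 18°C only. Its values were 48.2, 29.18, 47.6 and 41.9 at 18°C. They were 16.2, 19.4, 9.84 and 15.2 at 25°C, and 13.9, 9.87, 9.96 and 10.2 at 29°C. The 18°C libraries stood above all others, and the 25°C and 29°C libraries overlapped. Against 29°C the log2 fold change was 1.82 (SE 0.27, limma adjusted p = 0.000117), and against 25°C it was 1.41 (SE 0.27, adjusted p = 0.00291). Between 29°C and 25°C it was -0.41, with a 95% interval from -0.99 to 0.17. Both 18°C calls held in each of 23 alternative analyses.

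The miR-9373-3p of the CG6231 5′ UTR had few reads and passed the filter through its 18°C libraries. Its values were 17.0, 11.1, 14.4 and 13.5 at 18°C. They were 6.49, 5.11, 5.91 and 4.56 at 25°C, and 5.41, 5.64, 5.43 and 7.65 at 29°C. The 18°C libraries stood above all others. Against 29°C the log2 fold change was 1.09 (SE 0.30, limma adjusted p = 0.00951), and against 25°C it was 1.20 (SE 0.30, adjusted p = 0.0127). The calls were lost in DESeq2 (adjusted p = 0.0804 and 0.0708) and with a pseudocount of 10, where the changes were 0.58 and 0.63. Without 18°C ZT3 the change against 29°C was 0.999, just under the threshold of 1.

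The miR-9375-3p of the CG9727 3′ UTR had a wide spread. Its values were 9.82, 9.73, 11.9 and 25.6 at 18°C. They were 19.5, 13.3, 5.25 and 6.84 at 25°C, and 2.32, 8.46, 9.05 and 0 at 29°C. The 18°C and 29°C libraries did not overlap, while 25°C overlapped both. Between 18°C and 29°C the log2 fold change was 1.74 (SE 0.67), which missed the threshold (limma adjusted p = 0.0544). It passed without 29°C ZT9 (adjusted p = 0.0351) or 29°C ZT15 (0.0246).

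Its partner arm miR-9375-5p, with a mean of 5.67 reads, was under the filter. It had 10, 4, 13 and 15 reads at 18°C. At 25°C it had 3, 8, 10 and 1, and at 29°C 1, 0, 1 and 2. The pooled ratio of 18°C to 29°C was 8.30 (3.01 to 31.9), and the fit with no filter called it higher at 18°C, by 2.20 (adjusted p = 0.0114).

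The miR-9378-5p of the CG17124 intron went the other way. Its values were 8.04, 0, 8.50 and 4.26 at 18°C. They were 17.3, 12.3, 14.4 and 12.9 at 25°C, and 13.9, 12.7, 8.15 and 17.9 at 29°C. The 18°C libraries were below all of 25°C and overlapped 29°C in 1 library, ZT15. The log2 fold change against 29°C was -1.57 (SE 0.59, limma adjusted p = 0.0468), and that against 25°C was -1.71 (SE 0.59, adjusted p = 0.0535), a larger difference that missed the threshold. The latter passed without 18°C ZT3 (adjusted p = 0.0420), 18°C ZT15 (0.0396) or 29°C ZT21 (0.0469).

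The call of miR-9378-5p against 29°C was weak. It was lost in edgeR (adjusted p = 0.0771) and in DESeq2 (0.110). In limma it was lost with a pseudocount of 0.5 (adjusted p = 0.0644) and without the trend and robust settings (0.0538). With a pseudocount of 10 the change was -0.63, under the threshold in size. Adjusted p ran from 0.0231 to 0.110 over 22 alternatives and was under 0.05 in 9. The lowest value, 0 at 18°C ZT9, came from a library of 7612981 reads. Without it the change was -0.84 against 29°C (adjusted p = 0.0806) and -0.98 against 25°C. Other libraries whose removal ended the call were 18°C ZT21, each of the 25°C libraries, and 29°C ZT3, ZT9 and ZT21.

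The miR-9383-3p of the CG12241 coding exon had the highest mean read number of the series. Its values were 17.9, 33.3, 22.1 and 18.5 at 18°C. They were 29.19, 40.8, 19.7 and 28.9 at 25°C, and 41.0, 56.4, 15.4 and 53.6 at 29°C. The 29°C library at ZT15 was the lowest of all 12 and the other 29°C libraries were among the highest. The log2 fold change of 18°C against 29°C was -0.72 (95% interval -1.54 to 0.09, limma adjusted p = 0.145). Without 29°C ZT15 it was -1.13 (adjusted p = 0.00797), so this library decides the call.

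The miR-9381-3p of the lncRNA:mimi exon was low in 3 of 4 libraries at 18°C. Its values were 5.36, 23.6, 5.95 and 7.10 at 18°C. They were 10.8, 18.4, 15.1 and 16.0 at 25°C, and 10.1, 12.7, 12.7 and 28.1 at 29°C. The 18°C ZT9 library stood above every 25°C library. The log2 fold change of 18°C against 29°C was -0.69 (95% interval -1.64 to 0.25, limma adjusted p = 0.229), and without 18°C ZT9 it was -1.14 (adjusted p = 0.0275). The partner arm miR-9381-5p had 0 to 12 reads per library, the most at 25°C ZT21.

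The miR-9369-3p, from between mir-972 and mir-973 of the testis cluster, showed no difference past the threshold. Its values were 19.6, 15.3, 23.8 and 26.3 at 18°C. They were 23.8, 27.6, 23.6 and 20.5 at 25°C, and 39.4, 29.6, 29.87 and 15.3 at 29°C. The 3 temperatures overlapped. The log2 fold change of 18°C against 29°C was -0.36 (95% interval -0.98 to 0.25, limma adjusted p = 0.337), which leaves room for a change in either direction. The summed value of the testis list was 25.0 to 34.8 at 18°C, 24.5 to 50.1 at 25°C and 35.7 to 42.3 at 29°C.

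**Figure D3:**
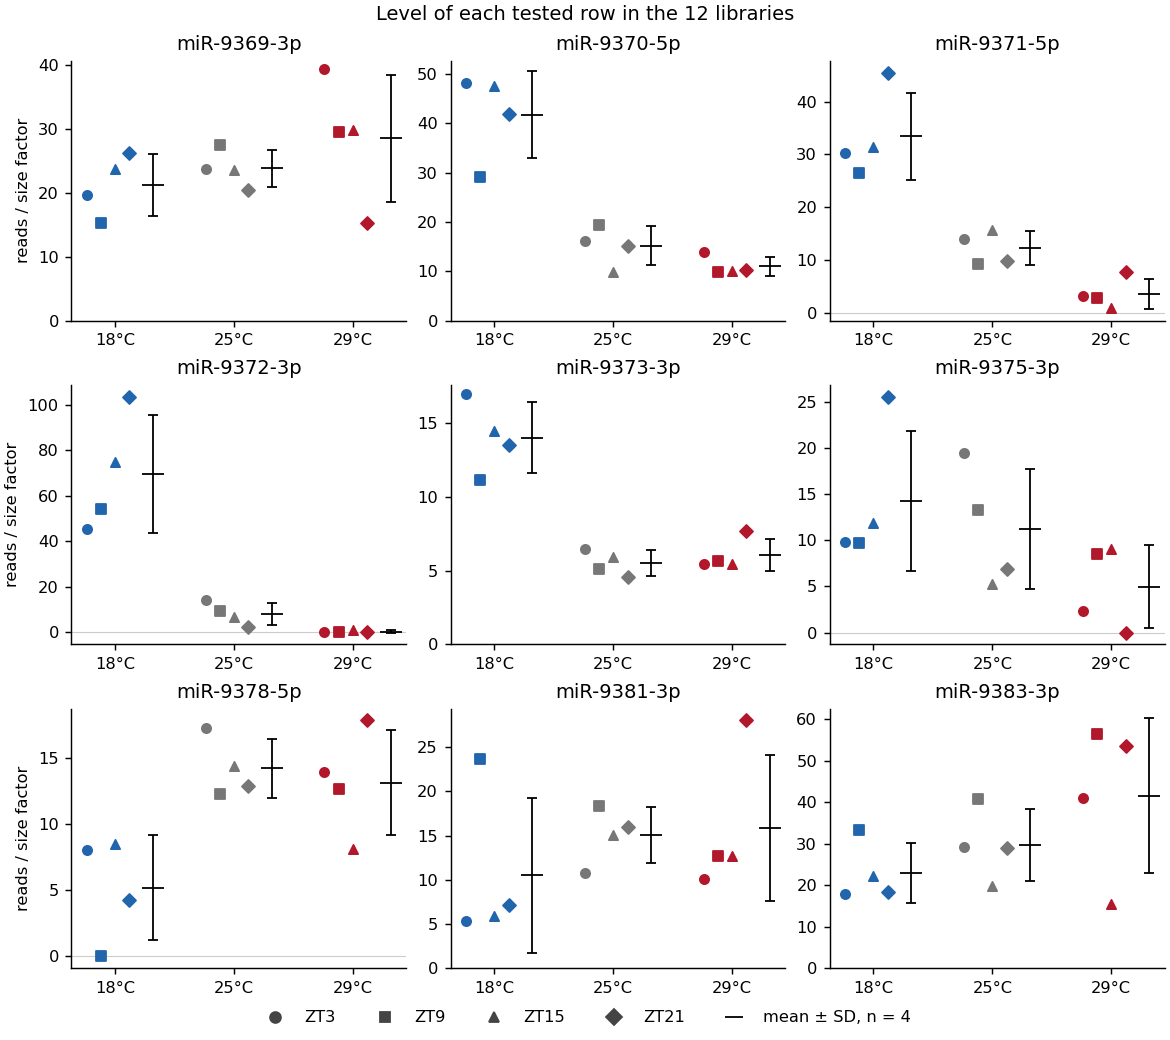
Values (reads divided by the size factor of the library, vertical axes) of the 9 mature miRNAs tested, by temperature (horizontal axes), with a marker shape for each time point and black bars for the mean ± SD of 4 libraries. The miR-9372-3p libraries run from 45.5 to 104 at 18°C and from 0 to 0.905 at 29°C, and those of miR-9370-5p from 29.18 to 48.2 and from 9.87 to 13.9.

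Between 18°C and 25°C, 4 of 9 were called, against 4.1% of all rows tested. They were miR-9370-5p, miR-9371-5p, miR-9372-3p and miR-9373-3p, and all were higher at 18°C, against 3.69% of all rows. Leaving out miR-9373-3p, 3 of 8 were called, still with miR-9372-3p and miR-9375-3p, which needed their 18°C libraries to pass the filter. The values did not overlap in 5 of 9, against 24.6% of all rows. Among the tested rows with a mean under 100 reads 7.32% were called, and among those of the 4900s 5.56%. With no filter, 5 of all 26 were called, against 2.73% of 403 rows, the addition being miR-9372-5p.

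Between 29°C and 25°C, 2 of 9 were called, against 3.28% of all rows tested. They were miR-9371-5p and miR-9372-3p, both lower at 29°C, against 1.23% of all rows, and these were also the 2 of 9 whose values did not overlap, against 16.8%. With only the 25°C and 29°C libraries, 5 of the series passed the filter, neither of these among them, and 0 were called. With a pseudocount of 10 there were also 0. With no filter, 2 of all 26 were called, against 2.23% of 403 rows. The mean at 25°C lay between the means at 18°C and 29°C for 7 of 9, and for 143 of 244 rows.

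**Figure D4:**
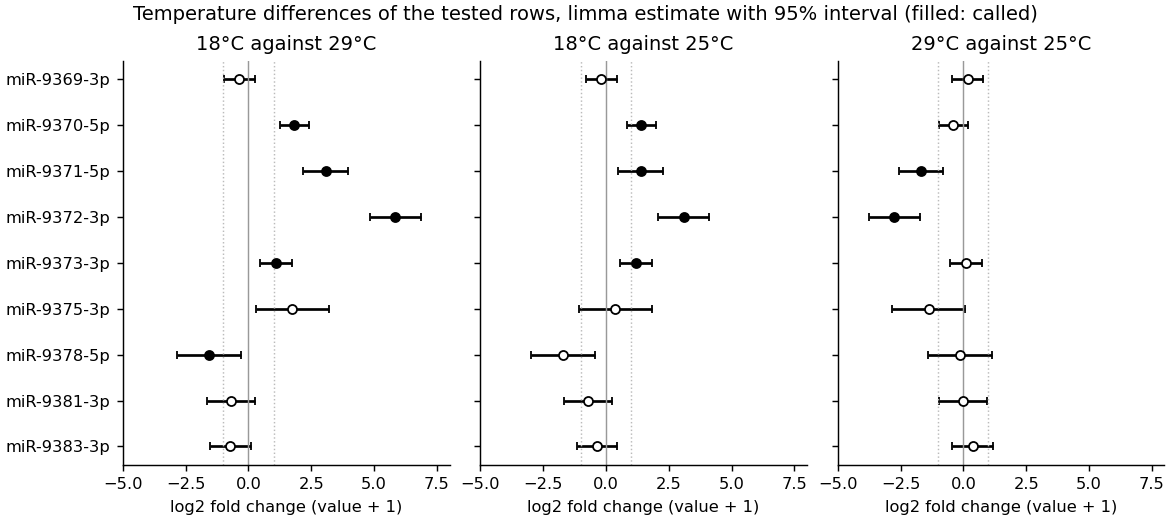
Log2 fold changes on the log2(value + 1) scale (horizontal axes) of the 9 mature miRNAs tested, in the 3 temperature comparisons, with 95% limma intervals. Filled points are called; dotted lines mark a change of 1. Estimates between 18°C and 29°C run from -1.57 for miR-9378-5p to 5.84 for miR-9372-3p.

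Of the 17 under the filter, miR-9382-3p of the MRP intron and miR-9388-3p had the most reads. The miR-9382-3p had 13, 10, 8 and 13 reads at 18°C. At 25°C it had 7, 5, 3 and 7, and at 29°C 4, 4, 1 and 2. Its pooled level was 9.94 at 18°C (exact Poisson interval 7.23 to 13.4) and 3.14 at 29°C (1.57 to 5.63), and the fit with no filter called it higher at 18°C, by 1.39 (adjusted p = 0.0369).

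The miR-9388-3p had 5, 0, 4 and 7 reads at 18°C. At 25°C it had 9, 4, 7 and 7, and at 29°C 10, 6, 10 and 0. Its pooled level was 3.62 at 18°C (2.07 to 5.87) and 7.43 at 29°C (4.85 to 10.9), with overlapping libraries. The fit with no filter did not call it in any comparison (adjusted p from 0.507 to 0.895).

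The other 12 could not be followed at this depth. The range of reads per library was 0 to 6 for miR-9384-5p, 0 to 5 for miR-9374-5p, and 0 to 4 for miR-9370-3p, miR-9371-3p and miR-9385-3p. It was 0 to 3 for miR-9369-5p, miR-9374-3p and miR-9377-3p. For miR-9377-5p, miR-9379-3p, miR-9384-3p and miR-9385-5p no library had more than 1 read. No difference was detectable in any of these in the fit with no filter.

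**Figure D5:**
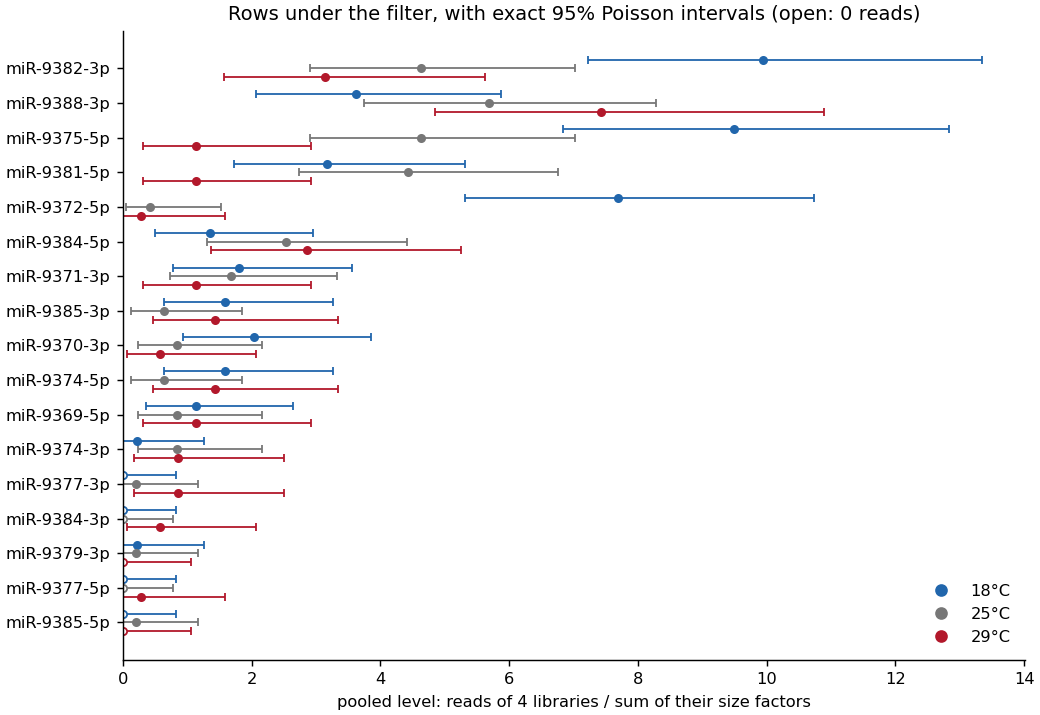
Pooled levels (reads of the 4 libraries of a temperature divided by the sum of their size factors, horizontal axis) of the 17 mature miRNAs under the filter, with exact 95% Poisson intervals that cover counting error only; open points had 0 reads. The miR-9382-3p level runs from 3.14 at 29°C to 9.94 at 18°C, and the intervals of most others overlap.

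The hairpins wholly inside exons of protein-coding genes carried most of the series' reads, and the cold excess of the summed value lay in them. Their mature miRNAs held 65.6% of the 2517 reads. Their summed value was 175 to 284 at 18°C, 69.9 to 108 at 25°C and 48.9 to 88.9 at 29°C, so 18°C did not overlap the others. The mature miRNAs of all other hairpins summed to 55.2 to 66.7, 66.3 to 80.0 and 66.3 to 86.6 in the same order. As a sum these were not higher in the cold. These others include mir-9381, most of which lies in an exon of the noncoding lncRNA:mimi.

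Without mir-9372 the exonic sum was 117 to 165 at 18°C, 66.8 to 99.0 at 25°C and 47.1 to 88.9 at 29°C. The split by position was chosen after the values were seen and is a description with no test. Not every exonic hairpin shared the cold excess. From the coldest to the warmest group, mir-9383 had 96, 135 and 131 reads. In that order mir-9374 had 8, 7 and 8, too few to show a difference. The exonic mir-9375 did have more reads in the cold, with 110, 70 and 23 in that order, though miR-9375-3p was called in no comparison of the main fit. The intronic miR-9382-3p was among those called higher at 18°C with no filter.

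No mature miRNA of the series changed with the time of day past the threshold. Of 11 tested in limma with temperature as covariate, 0 passed at an adjusted p under 0.05, as for 0% of 252 rows. At an unadjusted p under 0.05 there were also 0, against 4.76% of all rows, and edgeR called 0. The lowest was miR-9383-3p (unadjusted p = 0.0547, limma adjusted p = 0.863), whose value was highest at ZT9 at each temperature (33.3, 40.8 and 56.4). With 3 libraries a time point and no replicate within a temperature, small differences could not be detected.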

How the data were processed

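Small RNAs bound to AGO1 were sequenced by the study from 12 head libraries (NEBNext small RNA kit). Reads were assigned by the authors to miRBase 21 with miRExpress; its version and read filters are not given in the sources used here. The deposited values are a signal: reads of each row over a size factor for the library (0.392 to 1.52). All 4896 values (100%) gave whole reads within 0.01. Reads were not collapsed by molecular identifiers. Of 408 rows, 5 repeated another row and were dropped, which left 403.

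Values were tested with limma 3.58.1 (R 4.3.3; trend and robust) on log2(value + 1), a pseudocount of 1, after edgeR's filterByExpr (244 rows by temperature, 252 by time point), with Benjamini-Hochberg adjustment over these rows. A call needed an adjusted p below 0.05 and a log2 fold change above 1 in size. As alternatives, edgeR 4.0.16 and DESeq2 1.42.0 were run on the recovered reads, with other pseudocounts, filters, scalings, sample sets and a replicate block. The fits were tested on simulated data. Intervals are 95%: Clopper-Pearson for shares, exact Poisson for pooled levels.

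No 2 libraries of a temperature agreed within sampling noise (lowest chi-square per degree of freedom 236). Deviations of libraries with the same time point from their temperature means were positively correlated between 25°C and 29°C, but not so in the pairs with 18°C. The correlations were 0.226 to 0.445 in 4 of 4 pairs of 25°C and 29°C, and -0.465 to 0.0627 in the pairs with 18°C. Only 1 of 12 libraries correlated best with a library of its own time point, so pairing by time point was not established. Hairpins were matched by name to Ensembl's BDGP6.54 annotation, and all 16 were found; the table itself holds no coordinates. Mature miRNA sequences were not used here. Named with values were miRNAs that passed the filter or had a mean of at least 5 reads or 10 reads in 1 library. The members, lists and tests were chosen with earlier results of these data known.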

Additional observations from a re-analysis of the deposited data

Results flagged for a closer look

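The 9 tested miRNAs at 3 temperatures gave 27 groups of 4 libraries. In 6 of them, 1 library stood apart from the other 3 by Dixon's test at the 95% level. For normally distributed values, chance gives about 1 in 20 groups, or 1.35 here. Values that rest on few reads are not so distributed, so the count is a description, and whether 6 is an excess cannot be judged. For miR-9381-3p it was 18°C ZT9, with 23.6 against 5.36 to 7.10 in the others, and 29°C ZT21, with 28.1 (11 reads) against 10.1 to 12.7. For miR-9375-3p it was 18°C ZT21, with 25.6 against 9.73 to 11.9. For miR-9370-5p it was 29°C ZT3, with 13.9 against 9.87 to 10.2. In the remaining 2 the library stood apart by very few reads: miR-9373-3p at 29°C ZT21, with 7.65 (3 reads) against 5.41 to 5.64, and miR-9372-3p at 29°C ZT15, with 0.905 (1 read) against 0.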

How the results depend on the processing

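Of 613 values of single miRNAs under the alternatives, 570 kept their direction and their side of the threshold, 28 lost a call, 7 gained one and 8 changed sign near 0. Most results of the main fit were not calls, so many of the 570 had no call to lose. Alternatives in which a miRNA failed the filter are not among the 613. The number called between 18°C and 29°C (5) was 3 with a pseudocount of 10, 3 in DESeq2 and 8 with no filter, and 4 to 8 when single libraries were left out and the filter was run again, the 8 being without 29°C ZT15, where 11 of the series were tested instead of 9. With the same rows tested as in the full fit, an alternative chosen after seeing the data, it was 4 to 7, the 7 being without the same library. Between 18°C and 25°C (4) it was 2 with a pseudocount of 10 and 3 to 5 with single libraries left out, with the filter run again or not. Between 29°C and 25°C (2) it was 0 with a pseudocount of 10, 0 with only the libraries of these temperatures (5 of the series then passed the filter), and 1 to 2 with single libraries left out, the 1 being without 25°C ZT3, and 2 throughout with the same rows tested. A pseudocount of 10 shrinks the change of every row with few reads by construction, and with no filter all 26 were tested instead of 9. For DESeq2 and the left-out libraries the cause was not tested.

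The sign changes were all between 29°C and 25°C. The log2 fold change of miR-9381-3p (-0.01) was 0.0076 with a pseudocount of 10, 0.011 in DESeq2, and -0.31 to 0.15 with single libraries left out. That of miR-9378-5p (-0.14) was -0.29 to 0.054 with single libraries left out. The median number detected per library (19 at 1 read) was 13 at 3 reads and 14.5 at the depth of the shallowest library. The number called over the time of day was 0 in every alternative run. In the fit with a replicate block for the time point, 5, 4 and 2 were called in the 3 comparisons, as without it. The block changed no call of a single miRNA of the series.

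Depth limits most of the series: 18 of 26 had a mean under 10 reads. Among the miRNAs tested, the median ratio of variance between libraries to counting error was 1.77, over 26 groups with at least 10 reads.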
